A study of Homo sapiens with 6 samples.

Results

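The respiratory chain genes were followed in D283 cells, an established line from a human medulloblastoma, after a guide RNA against the homeobox gene OTX2 or a non-targeting guide. Members were taken by symbol from the table of counts per gene: the NDUFA, NDUFB, NDUFC, NDUFS and NDUFV genes of complex I, SDHA to SDHD of complex II, the UQCR genes of complex III, the COX4 to COX8 genes of complex IV, and the protein-coding genes of the mitochondrial genome. The rule found 87 of 50883 rows, which were 63 nuclear subunit genes, 13 mitochondrially encoded mRNAs and 11 UQCR pseudogenes. The symbols COX4I1, CYC1 and NDUFAB1 lie outside the rule and are counted with the other mitochondrial genes. Both groups were D283 cultures infected with a lentivirus that also expressed GFP, and RNA was taken after 7 days. The control group received the non-targeting guide and the knockout group the guide against OTX2, with 3 infections in each. Only 1 cell line was used, and the sources used here do not say whether the knockout cultures were clones or pools, where the nuclease came from or what share of cells was edited.

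Respiratory complexes I, III and IV move electrons from NADH and succinate to oxygen and pump protons across the inner mitochondrial membrane, while complex II passes electrons from succinate without pumping. The ATP synthase, complex V, uses the proton gradient. Most subunits are encoded in the nucleus and imported. The mitochondrial genome encodes the hydrophobic subunits at the membrane cores of complexes I, III, IV and V, on long transcripts that are cut apart after synthesis, and it encodes no subunit of complex II.

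Libraries held between 54540645 and 62166870 counts. OTX2 RNA was at 1002, 979 and 909 CPM in control and at 765, 824 and 887 CPM in knockout, a log2 fold change of -0.22 (SE 0.06, edgeR adjusted p = 0.00646). CPM are counts per 1000000 counts of a library, after library sizes were adjusted by TMM scaling. Of 8 marker genes of Group 3 medulloblastoma, 1 rose and 7 fell, where 21.2% of all tested genes rose and 18.5% fell. Their summed level was 4493 to 4812 CPM in control and 3266 to 3823 CPM in knockout. The 8 include OTX2 itself and MYC, whose mean was 1725 CPM in control and 1204 CPM in knockout. Much of the sum and of its fall came from these genes. Control replicate 1 stood apart from the other 5 libraries in its mitochondrial RNA. Mitochondrial rRNA took 0.304% of its counts. The range was 0.0675% to 0.0971% for control replicates 2 and 3, and 0.0941% to 0.111% for the knockout libraries. It also had the lowest control CPM for 47 of the 56 tested nuclear members, with a median of 0.921 times the mean of the other controls. Results on the members are therefore given with and without it. P-values measure the spread between infections of this cell line, and in bulk RNA fewer cells of a kind and less RNA per cell cannot be told apart.

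The mitochondrially encoded members that passed the test were all higher in knockout, and the nuclear members that passed were lower with 1 exception. Of 13 mitochondrially encoded mRNAs, all tested, 6 rose in knockout and 0 fell (edgeR's quasi-likelihood test at an adjusted p under 0.05, by the Benjamini-Hochberg method), where 21.2% of all tested genes rose. Their median log2 fold change was 0.26, against 0.01 over all 18420 tested genes. Of 56 tested nuclear subunit genes, 1 rose and 16 fell, where 18.5% of all tested genes fell, and their median was -0.09. All changes were small: nuclear members lay between -0.29 and 0.31 on the log2 scale, and mitochondrial ones between 0.00 and 0.57. Groups did not overlap in CPM for 3 mitochondrial mRNAs, all higher in knockout, where 26.2% of all tested genes were higher without overlap. Among the nuclear subunits 18 were lower and 2 higher without overlap, where 23% of all tested genes were lower without overlap.

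**Figure D1:**
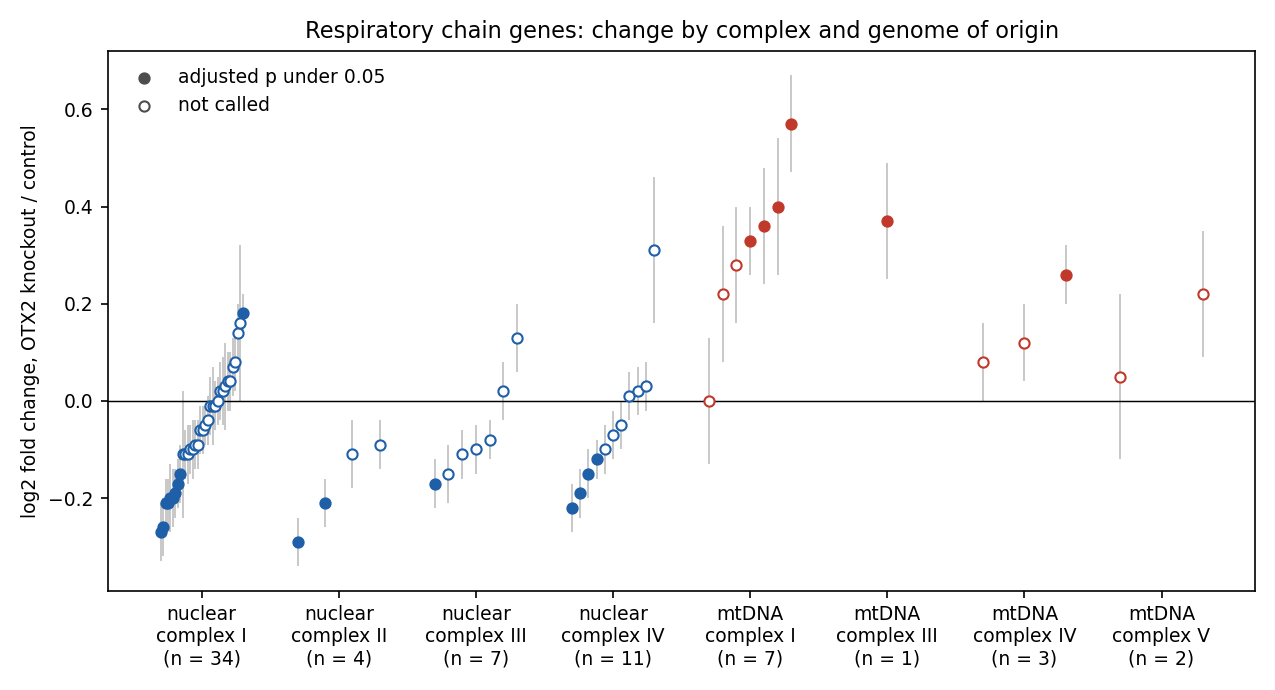
Log2 fold change of each tested member, OTX2 knockout over control, by complex and by the genome that encodes it; blue points are nuclear and red points mitochondrial genes, bars are SE, and filled points passed the test. The filled nuclear points lie below 0 except NDUFB4, and the 6 filled mitochondrial points lie above 0.

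The nuclear calls changed with the scaling. With library totals alone the median of all tested genes moves from 0.01 to 0.08, and the counts become 5 nuclear members higher and 6 lower, where 28.3% of all genes were higher and 11% lower. The median of the nuclear members was then -0.01. The mitochondrial mRNAs had 7 higher and 0 lower on that scale. Without control replicate 1, 12 mitochondrial mRNAs rose and 0 fell (20.4% of all tested genes rose), and 1 nuclear member rose and 23 fell (19.3% fell). The mitochondrial median was then 0.45 and the nuclear median -0.10. Among the controls, that library was highest for every mitochondrial mRNA but MT-ND6 and lowest for 47 of the 56 tested nuclear members. Leaving it out therefore moves the mitochondrial and nuclear values apart, and the larger counts follow in part from that choice. Its mitochondrial mRNA share, 0.458% of counts, lay inside the knockout range of 0.436% to 0.498%. With all libraries and a correction for GC content and transcript length, 7 nuclear members were higher and 14 lower. On that scale 22.1% of all tested genes were higher and 21.9% lower. The nuclear median was then -0.01, against 0.00 over all tested genes.

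A ratio within each library needs no scaling. Summed counts of the 13 mitochondrial mRNAs per count of the 63 nuclear subunit genes were 0.983, 0.718 and 0.742 in control and 1.02, 0.949 and 0.917 in knockout. Control replicates 2 and 3 lay below every knockout library, and control replicate 1 lay inside the knockout range. The mean ratio was 0.814 ± 0.146 in control and 0.961 ± 0.0514 in knockout (SD, n = 3 per group), a difference of 0.25 on the log2 scale. It was 0.40 without control replicate 1, so this library alone moves the value by more than 1.5 times. The numerator moved more than the denominator: mitochondrial mRNAs took 0.393% ± 0.0572 of counts in control and 0.464% ± 0.031 in knockout, and the nuclear members 0.485% ± 0.0171 and 0.483% ± 0.00668 (SD, n = 3 per group).

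**Figure D2:**
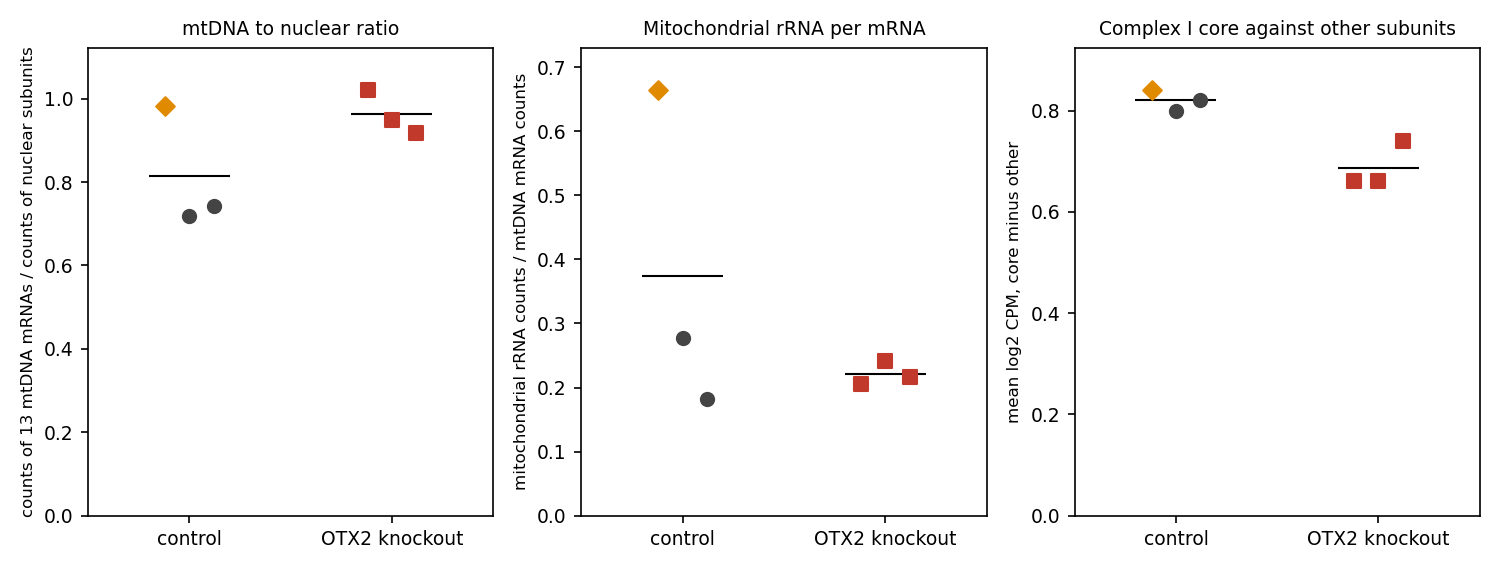
Each point is 1 library (grey circles and the orange diamond are controls, red squares knockout) and each bar the group mean. The diamond is control replicate 1. The left panel plots mitochondrial mRNA counts per nuclear subunit count, the middle panel mitochondrial rRNA counts per mitochondrial mRNA count, and the right panel the mean log2 CPM of the 7 nuclear core subunits of complex I minus that of its other tested nuclear subunits. Control replicate 1 is highest for rRNA per mRNA at 0.664, and in the right panel the groups do not overlap.

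Most mitochondrial complex I mRNAs were higher in knockout. MT-ND2 (chrM 4470 to 5511, plus strand, GENCODE 29 on GRCh38) encodes a proton-pumping membrane subunit. It was at 25.9, 18.5 and 20.1 CPM in control and at 34.7, 30.6 and 30.2 CPM in knockout. All knockout libraries lay above all controls, and its log2 fold change of 0.57 (SE 0.10, edgeR adjusted p = 0.000254) was the largest of the members. MT-ND6 was at 10.2, 10.5 and 9.64 CPM in control and at 13.5, 12.7 and 12 CPM in knockout, also without overlap (0.33, SE 0.07, edgeR adjusted p = 0.00148). MT-ND6 (chrM 14149 to 14673) is the mRNA on the minus strand of the annotation, read from the other promoter of the circle. It was also the one whose level in control replicate 1 matched the other controls, at 1.01 times their mean, while the other 12 mRNAs were at 1.14 to 1.65 times that mean.

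MT-ND4 and MT-ND5, further membrane subunits that pump protons, rose by 0.36 and 0.40 on the log2 scale (SE 0.12 and 0.14, edgeR adjusted p = 0.0255 and 0.0294). MT-ND4 levels were 92.9, 58.3 and 64.9 CPM in control against 98.9, 89.3 and 89 CPM in knockout. MT-ND5 levels were 55, 32.2 and 36.5 CPM in control against 59.8, 52.5 and 50.8 CPM in knockout. In both, control replicate 1 fell within the knockout range and the other controls below it. Neither passed without control replicate 2, without control replicate 3 or without knockout replicate 1. MT-ND1, MT-ND4L and MT-ND3 did not pass, with log2 fold changes of 0.28, 0.22 and 0.00 (edgeR adjusted p = 0.0781, 0.24 and 0.986). MT-ND3 was at 80.5 CPM in control replicate 1, above every other library, and without that library all 3 passed, at 0.48 for MT-ND1, 0.50 for MT-ND4L and 0.24 for MT-ND3 (edgeR adjusted p = 0.000125, 3.43e-05 and 0.0109).

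In complex III, MT-CYB, the cytochrome b that carries both quinone sites, was at 59.3, 38.4 and 39.5 CPM in control and at 65.1, 58.5 and 54.1 CPM in knockout (log2 fold change 0.37, SE 0.12, edgeR adjusted p = 0.0252). Control replicate 1 again lay among the knockout values. The call was lost without control replicate 2, without control replicate 3, and without knockout replicate 1 or 2. In complex IV, MT-CO3, a core subunit without metal centres, was at 1405, 1215 and 1252 CPM in control and at 1615, 1568 and 1446 CPM in knockout. The groups did not overlap (log2 fold change 0.26, SE 0.06, edgeR adjusted p = 0.00314). MT-CO1, the catalytic subunit with the heme and copper site where oxygen is reduced, was at 2403, 1845 and 1923 CPM in control and at 2291, 2139 and 2095 CPM in knockout. With control replicate 1 the highest of all libraries, it did not pass (log2 fold change 0.08, SE 0.08, edgeR adjusted p = 0.454), and it did without that library (0.20, adjusted p = 0.00297). MT-CO2, which takes electrons from cytochrome c, had log2 fold changes of 0.12 (edgeR adjusted p = 0.292) with that library and 0.25 (0.00214) without it.

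The ATP synthase subunits MT-ATP6 and MT-ATP8 did not pass (log2 fold changes 0.22 and 0.05, edgeR adjusted p = 0.189 and 0.857). Without control replicate 1, MT-ATP6 passed at 0.45 (edgeR adjusted p = 7.12e-05) and MT-ATP8 did not at 0.31 (0.114). MT-ATP8 was at 2.51, 1.49 and 1.65 CPM in control and at 1.98, 1.91 and 1.94 CPM in knockout, the lowest level of the 13 mRNAs. These genes overlap, and so do MT-ND4L and MT-ND4, so that reads on the shared bases cannot be given to 1 gene. Shared stretches, from GENCODE 29 transcripts on GRCh38, matter because a count there is ambiguous. The longer one is shown, and capitals mark the start codon of the downstream gene.
MT-ATP8 and MT-ATP6, chrM:8527-8572, plus strand: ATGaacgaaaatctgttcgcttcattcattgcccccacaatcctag
The stretch shared by MT-ND4L and MT-ND4 has 7 bases. Only 207 bases long, MT-ATP8 shares 46 of them with MT-ATP6.

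**Figure D3:**
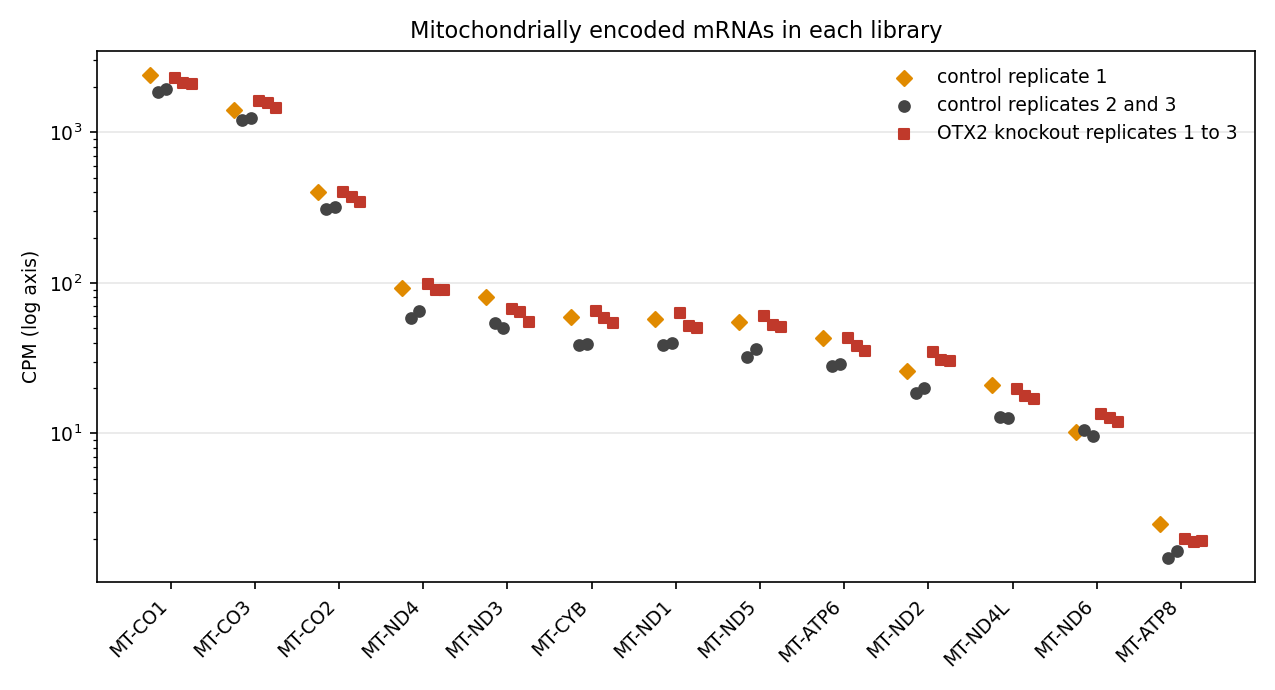
CPM of each mitochondrially encoded mRNA in each of the 6 libraries on a log axis, ordered by mean level. Control replicate 1 (orange diamond) lies above all knockout libraries (red squares) for MT-CO1, MT-ND3, MT-ND4L and MT-ATP8, among others, and below them for MT-ND2, MT-CO3 and MT-ND6.

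Within the mitochondrial mRNA pool, some shares also differed between the groups, and they are given without a test. Shares within the pool do not change with library scaling or with the total amount of mitochondrial mRNA. MT-ND2 took 0.556%, 0.504% and 0.528% of the pool in control and 0.726%, 0.682% and 0.705% in knockout, so that per 1000 counts of MT-CO1 there were 10.8, 10 and 10.4 counts of MT-ND2 in control and 15.1, 14.3 and 14.4 in knockout. All knockout libraries were higher than every control, control replicate 1 included. The share of MT-CO3 was 30.2%, 33.2% and 33% in control and 33.8%, 34.9% and 33.8% in knockout, while that of MT-CO1 was 51.6%, 50.4% and 50.6% in control and 48%, 47.6% and 48.9% in knockout. Neither share overlapped between the groups, and the other 10 mRNAs overlapped. MT-CO1 and MT-CO3 made up most of the pool in every library, so a change in the level of either moves the shares of both. Their shares are therefore not separate results. Per kilobase of transcript, MT-CO3 reached 1807 and MT-CO1 1372 CPM averaged over libraries, MT-CO2 523, MT-ND3 178 and the other mRNAs 9.24 to 59.7.

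Sequence shared with nuclear copies of the mitochondrial genome limits these levels. Of all 50-base windows in the transcript, 49.5% in MT-CO1, 46.7% in MT-ATP6 and 43.6% in MT-ND2 also occurred in another annotated gene, mostly a nuclear pseudogene copy, against 0% in MT-ND3 and MT-ND4L. Rows of the table named as such pseudogenes held 335 to 459 counts in the control libraries and 450 to 535 in knockout, or 0.162 to 0.178 per 100 mitochondrial mRNA counts. The sources used here do not say how reads that match several places were counted.

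The rRNAs of the mitochondrial genome did not pass the test, and their values turn on control replicate 1. MT-RNR1, the small-subunit rRNA, was at 389, 93.8 and 55.9 CPM in control and at 87.7, 99.5 and 84 CPM in knockout, and MT-RNR2, the large-subunit rRNA, at 2707, 920 and 635 CPM and at 899, 985 and 840 CPM. In both the control libraries spanned the knockout values, and neither passed (edgeR adjusted p = 0.0988 and 0.153). Mitochondrial rRNA per mitochondrial mRNA count was 0.664, 0.277 and 0.182 in control and 0.206, 0.241 and 0.216 in knockout. The mean was 0.374 in control and 0.221 in knockout with all libraries, and 0.229 and 0.221 without control replicate 1. The part of the rRNA in the higher mRNA level of that library was not tested. Of 24 listed rRNA and tRNA genes, 10 were tested. In knockout 0 were higher and 2 lower, MT-TI and MT-TW, where 21.2% of all tested genes rose and 18.5% fell. Both were low, at 0.372 to 1.34 CPM for MT-TI and 0.954 to 1.95 CPM for MT-TW. Without control replicate 1, 0 were called. The median log2 fold change of the tested genes in this list was -0.04 with that library and 0.22 without it.

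**Figure D4:**
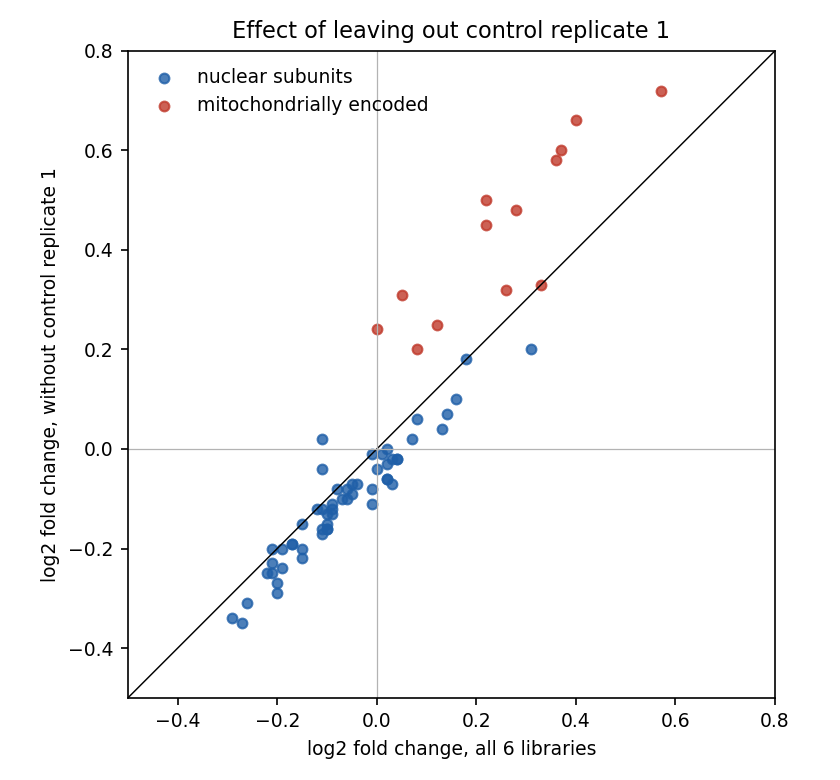
Log2 fold change of each tested member without control replicate 1 (vertical) against that with all 6 libraries (horizontal); the diagonal marks equality. The mitochondrially encoded mRNAs (red) lie above the diagonal apart from MT-ND6, and most nuclear subunits (blue) lie slightly below it.

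Among the nuclear genes of complex I, 1 of 34 tested rose and 9 fell (median -0.06), where 21.2% of all tested genes rose and 18.5% fell. With library totals alone 3 rose and 3 fell, where the shares of all genes were 28.3% and 11%, and with the GC and length correction 4 rose and 9 fell (22.1% and 21.9%). NDUFB4, an accessory subunit of the membrane arm on chromosome 3 (120596309 to 120602500, plus strand), was the one nuclear member that rose. It was at 65.4, 65.7 and 64.7 CPM in control and at 73.5, 74.7 and 73.7 CPM in knockout. The spread within groups was far below the difference between them (log2 fold change 0.18, SE 0.04, edgeR adjusted p = 0.00345), and all 17 alternative fits called it higher. NDUFS7, a core subunit with an iron-sulfur cluster, was at 52.5, 61.6 and 63.5 CPM in control and at 50.4, 50.2 and 47.1 CPM in knockout (-0.27, SE 0.06, edgeR adjusted p = 0.00393). All knockout values were lower, but 25.9% of the 50-base windows of its transcript also occur in other genes. Other genes on either strand overlap 49.1% of its exon bases, and strand-specific counting is not stated. NDUFA9, an accessory subunit at the junction of the arms, fell by 0.26 on the log2 scale (SE 0.06, edgeR adjusted p = 0.00174), from 24.7, 27.2 and 27.2 CPM to 21.3, 22.5 and 22.2 CPM. Overlapping genes on its own strand share 14.7% of its windows.

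The remaining complex I falls were in NDUFB10, NDUFC2, NDUFS8, NDUFV1, NDUFS4, NDUFS1 and NDUFS6, with log2 fold changes of -0.15 to -0.21. NDUFC2 shares 16.8% of its windows with other genes, among them the fusion model NDUFC2-KCTD14. NDUFV1, the core subunit that binds NADH and flavin, was at 193, 225 and 224 CPM in control and at 191, 190 and 179 CPM in knockout. Control replicate 1 lay close to the knockout values, which the other controls exceeded (edgeR adjusted p = 0.0137, and 0.000164 without that library). The call was lost without control replicate 2 or 3 and with library totals alone. NDUFS1, the largest core subunit, which carries several iron-sulfur clusters, was at 232, 241 and 238 CPM and at 203, 208 and 219 CPM (edgeR adjusted p = 0.0068). NDUFS8, another iron-sulfur core subunit, overlapped between groups, with 67.3, 81.4 and 81 CPM in the controls against 69.9, 69 and 60.8 CPM in knockout (edgeR adjusted p = 0.0357). Its call was lost without control replicate 2 or 3 or knockout replicate 3, and with library totals alone. Library totals alone also ended the calls of NDUFB10, NDUFS4, NDUFS1 and NDUFS6, and the GC and length correction those of NDUFS4 and NDUFS6. NDUFS6 was lost as well without control replicate 2 or 3 or knockout replicate 2 or 3. On a per-length scale NDUFB9 was the most abundant nuclear member of complex I, at 303 CPM per kilobase. It is an accessory membrane subunit and did not pass (log2 fold change -0.06, SE 0.05, edgeR adjusted p = 0.378).

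The core subunits, which carry the catalytic centres and are shared with bacterial complex I, and the accessory subunits, which are not, are given side by side. Of the 7 nuclear core subunits, 4 fell and 0 rose (median -0.17), while of 27 other tested subunits 5 fell and 1 rose (median -0.01). The count of the others is at the share of all tested genes that fell, 18.5%. With library totals alone 1 core subunit fell, and 2 of the others fell and 3 rose. On that scale 11% of all tested genes fell and 28.3% rose. The mean log2 CPM of the core minus that of the others was 0.84, 0.80 and 0.82 in control and 0.66, 0.66 and 0.74 in knockout. All knockout libraries were below all controls, control replicate 1 among them, and the scaling of a library cancels in this difference. With NDUFV2 and NDUFA11 left out because most of their windows are shared with other genes, the difference was 1.37 to 1.43 in control and 1.22 to 1.29 in knockout. With a correction for GC content and transcript length the medians were -0.22 and 0.02. This comparison was chosen after the data were examined and is given without a test.

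Complex II, the succinate dehydrogenase that joins the citric acid cycle to the chain, had 2 of 4 members lower and 0 higher, where 18.5% of all tested genes were lower. SDHB, its iron-sulfur subunit on chromosome 1 (17018722 to 17054170, minus strand), was at 75, 82.8 and 83.6 CPM in control and at 65.8, 65.6 and 65.7 CPM in knockout. The groups were clearly apart, and the log2 fold change of -0.29 (SE 0.05, edgeR adjusted p = 0.000274) was the largest fall among the subunit genes. It was also the most abundant member of complex II per length, at 63.4 CPM per kilobase. SDHC, a membrane anchor subunit, was at 80.8, 80.1 and 76.1 CPM and at 67.1, 67.8 and 69.6 CPM (-0.21, SE 0.05, edgeR adjusted p = 0.00169). SDHB and SDHC passed in all 17 alternative fits, library totals alone included. SDHA, the flavin subunit, and SDHD, the other anchor, did not pass (-0.11 and -0.09, edgeR adjusted p = 0.287 and 0.205). SDHA was low, with 11.2 ± 0.991 CPM in the controls against 10.4 ± 0.235 CPM in knockout (SD, n = 3 per group), and 22.3% of its windows are shared with other genes, among them its pseudogene SDHAP1.

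In complex III, 1 of 7 tested nuclear members fell and 0 rose, a share of 14.3% lower that is below the 18.5% of all tested genes. Without control replicate 1, 4 fell, where 19.3% of all tested genes fell. UQCRC2, a large core protein on the matrix side, was at 289, 310 and 297 CPM in control and at 253, 266 and 279 CPM in knockout (log2 fold change -0.17, SE 0.05, edgeR adjusted p = 0.0153). The groups were separate, but the call was lost without control replicate 2, without knockout replicate 1 or 2, and with library totals alone. Its partner UQCRC1 had a log2 fold change of -0.15 (edgeR adjusted p = 0.054), and -0.22 without control replicate 1 (adjusted p = 0.0012). UQCRH, the hinge protein that docks cytochrome c, had the highest level per length of all nuclear members, 455 CPM per kilobase, and did not pass (-0.10, SE 0.05, edgeR adjusted p = 0.146). By CPM alone UQCRB was higher, with a control mean of 521 against 284. Lengths came from 1 transcript per gene, 5575 bases for UQCRB and 604 for UQCRH, so rankings per length depend on that choice.

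In complex IV, 4 of 11 tested nuclear members fell and 0 rose, where 18.5% of all tested genes fell. The 4 falls did not all hold with library totals alone, where 1 rose and 1 fell (28.3% and 11% of all tested genes). Nor did they with the GC and length correction, where 2 rose and 1 fell (22.1% and 21.9%). NDUFA4, named for complex I but known to sit in complex IV, was counted here and did not pass (log2 fold change -0.10, edgeR adjusted p = 0.0966). COX5A, an accessory subunit on the matrix side, was at 65, 67.8 and 68.8 CPM in control and at 57.6, 60.5 and 55.2 CPM in knockout (-0.22, SE 0.05, edgeR adjusted p = 0.00227). It passed in all 17 alternative fits. COX5B, which binds zinc, was at 83.4, 93.2 and 94.1 CPM and at 80.8, 79.1 and 78.2 CPM (-0.19, SE 0.05, edgeR adjusted p = 0.0106). The knockout values were lower than every control but lay near control replicate 1. The call was lost without control replicate 2, with library totals alone and with the GC and length correction. COX6A1 and COX7A2 fell by 0.15 and 0.12 on the log2 scale (edgeR adjusted p = 0.0153 and 0.0419), and 44% of the windows of COX6A1 also occur in other genes, among them a pseudogene. With the GC and length correction their log2 fold changes were -0.01 and 0.00 (edgeR adjusted p = 0.839 and 0.987). Both calls were also lost without knockout replicate 1 or 2 and on library totals alone, and that of COX7A2 without control replicate 2 or 3. COX7C, the most abundant nuclear member of the complex per length at 358 CPM per kilobase, measured 237 ± 4.95 CPM in the controls against 239 ± 9.14 CPM in knockout (SD, n = 3 per group, log2 fold change 0.01, edgeR adjusted p = 0.873).

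Several complex IV subunits exist as isoforms for particular tissues, and D283 cells of both groups expressed the general ones. COX6A2 and COX7A1, the forms of heart and skeletal muscle, had 5 and 4 counts in all libraries together, against 13373 for COX6A1 and 43676 for COX7A2. Of 12 muscle markers, 8 were tested and all 8 rose, where 21.2% of all tested genes rose. Without control replicate 1, 6 rose, where the share of all tested genes was 20.4%. The markers had a summed level of 13.7 to 18 CPM in control and 32.6 to 36.3 CPM in knockout. COX6A2 and COX7A1 stayed at 0 to 2 counts per library. Of the forms found mainly in testis, COX7B2 had 0 counts and COX8C 21 in all, where 3 counts correspond to 0.0471 to 0.0563 CPM. COX6B2, also a testis form, was measurable, at 1.16, 1.51 and 1.39 CPM in control and at 1.57, 1.78 and 1.67 CPM in knockout. Its counts per 1000 counts of COX6B1 were 14.9, 19.1 and 16.8 in control and 19.7, 21.7 and 20.5 in knockout, without overlap (exact two-sided permutation p = 0.1, the smallest that 3 against 3 allows), and its log2 fold change of 0.31 did not pass (edgeR adjusted p = 0.113).

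Of the 63 nuclear subunit genes, 7 had too few counts to be tested, and 3 of these are general subunits of complexes I and III. NDUFB8 and UQCR11 had 0 counts in all libraries and NDUFA7 1 or 2 counts per library. In GENCODE 29, another protein-coding gene model on the same strand overlaps each of them, and 72.7% of the 50-base windows of NDUFB8, 76.8% of NDUFA7 and 14.6% of UQCR11 occur in another gene. NDUFV2, a core subunit with an iron-sulfur cluster, shared 82% and was at 4.97 ± 0.867 CPM in control (SD, n = 3), far below the other core subunits. The 4 nuclear genes with over 60% of windows shared had a median level of 2.59 CPM per kilobase, against 56.9 for the other 54 tested ones. NDUFB8 and NDUFA7, among the 4, were not tested, while the 54 all were, so the contrast is partly built in. The other untested genes, UQCR11, COX6A2, COX7A1, COX7B2 and COX8C, are in neither value. They had almost no counts, with 0% to 32.5% of windows shared. The part of overlap in the low counts of NDUFB8, UQCR11, NDUFA7, NDUFV2 and NDUFA11 was not tested. The levels of these genes cannot be read as expression. Among the 11 pseudogenes, 7 had 0 counts throughout, and only UQCRFS1P1 was tested, with a log2 fold change of -0.30 (edgeR adjusted p = 0.433).

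**Figure D5:**
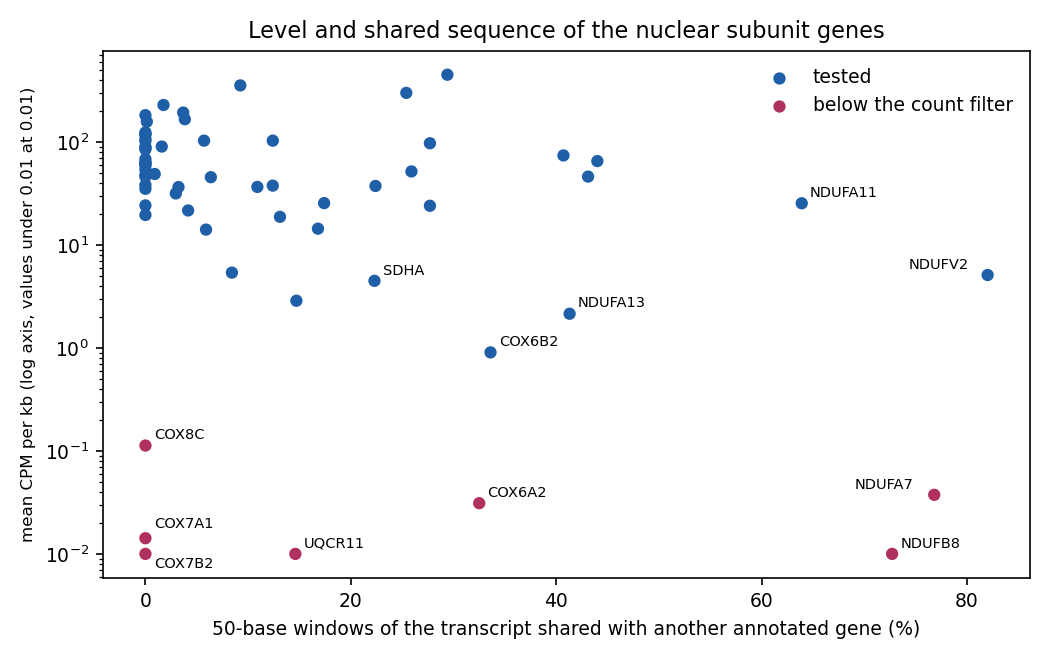
Mean CPM per kilobase of the 63 nuclear subunit genes on a log axis, with values under 0.01 drawn at 0.01, against the percentage of 50-base windows of the transcript that also occur in another annotated gene. NDUFB8 and NDUFA7 combine a high share with almost no counts, and COX7A1 and COX7B2 lie at the bottom with a share of 0%.

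Promoters of respiratory genes are known for sites of NRF1, of GABPA and other ETS factors, and of YY1. Promoter windows, 250 bases before to 50 after the start, were matched by symbol in RefSeq on GRCh38.p14 for 53 of the 63 nuclear genes. Sequences below are those of the rising NDUFB4 and of 3 members that fell, with capitals marking any of the searched motifs, which were GCATGCGC for NRF1, CCGGAAG for ETS, AAGATGGCG for YY1, GGGCGG for the GC box, CACGTG for the E-box and TAATCC for OTX2, on both strands.
NDUFB4, chr3:120596086-120596385, plus strand: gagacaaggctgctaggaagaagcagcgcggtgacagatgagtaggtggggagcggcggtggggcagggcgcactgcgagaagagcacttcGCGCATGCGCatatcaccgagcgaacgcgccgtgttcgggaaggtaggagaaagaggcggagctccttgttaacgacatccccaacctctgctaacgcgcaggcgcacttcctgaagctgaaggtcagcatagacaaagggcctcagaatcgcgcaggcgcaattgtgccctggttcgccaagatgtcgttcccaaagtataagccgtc
SDHB, chr1:17053983-17054282, minus strand: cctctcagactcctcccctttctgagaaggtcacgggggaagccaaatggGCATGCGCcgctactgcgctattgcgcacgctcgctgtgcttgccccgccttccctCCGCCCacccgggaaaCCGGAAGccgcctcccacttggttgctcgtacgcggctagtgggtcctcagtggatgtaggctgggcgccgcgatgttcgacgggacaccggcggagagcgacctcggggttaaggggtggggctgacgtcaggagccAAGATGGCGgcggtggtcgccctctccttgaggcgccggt
NDUFS7, chr19:1383657-1383956, plus strand: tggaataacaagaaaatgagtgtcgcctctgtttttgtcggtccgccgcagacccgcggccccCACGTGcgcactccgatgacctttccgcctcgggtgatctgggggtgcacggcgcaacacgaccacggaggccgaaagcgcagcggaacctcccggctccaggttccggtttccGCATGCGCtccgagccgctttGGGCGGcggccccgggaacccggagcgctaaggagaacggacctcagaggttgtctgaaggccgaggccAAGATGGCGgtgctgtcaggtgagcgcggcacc
COX5B, chr2:97645812-97646111, plus strand: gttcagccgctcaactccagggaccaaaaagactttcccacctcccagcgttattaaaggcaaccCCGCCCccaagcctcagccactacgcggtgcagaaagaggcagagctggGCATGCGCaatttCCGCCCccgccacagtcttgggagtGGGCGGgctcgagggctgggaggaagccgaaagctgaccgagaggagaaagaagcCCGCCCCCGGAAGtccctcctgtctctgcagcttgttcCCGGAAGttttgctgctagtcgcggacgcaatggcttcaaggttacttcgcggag
These were shown because they hold the NRF1 letters, so that this says nothing of the members as a whole. NDUFS8, NDUFV1, COX5A and UQCRC2, which also fell, do not hold them, and UQCRC2 holds the OTX2 letters. In NDUFB4 the hits of both strands overlap in 1 run. SDHB and NDUFS7 also hold the YY1 letters.

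Over the 53 promoters, 9 (17%) held the NRF1 letters, 14 (26.4%) the ETS letters and 7 (13.2%) the YY1 letters, against 3.05%, 10.3% and 1.75% of all 35116 windows of that length in the table. The GC box was in 56.6% and 45%, the E-box in 7.55% and 7.26%, and the OTX2 letters in 3.77% and 6.36%. Of the 14 matched members that fell, 5 held the NRF1 letters, 4 ETS, 4 YY1, 8 the GC box, 1 the E-box and 1 the OTX2 letters. Of the 32 matched members that were tested and not called, the numbers in the same order were 3, 9, 2, 19, 1 and 0. These are letter matches in fixed windows, not sites. The 35116 windows outnumber the 18420 tested genes and so include genes not tested here. A comparison with the promoters of tested genes alone was not made.

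Other genes of mitochondrial function, in 11 lists, had medians between -0.16 and -0.04. Their counts stand against the 21.2% of all tested genes that rose and the 18.5% that fell. Of 7 subunit genes outside the symbol rule, 3 fell and 0 rose: CYC1, the cytochrome c1 of complex III (log2 fold change -0.25, edgeR adjusted p = 0.0097), COX4I1 (-0.15, 0.0258) and the electron carrier CYCS (-0.13, 0.0477). Of 16 nuclear ATP synthase genes, 7 fell and 0 rose (median -0.10), among them the catalytic subunits ATP5A1 and ATP5B, which went from 1046 ± 79.8 to 893 ± 26.9 CPM and from 881 ± 38.3 to 794 ± 13.1 CPM (SD, n = 3 per group). Complex I assembly factors had 7 of 17 lower and 0 higher, with ECSIT at -0.28 and NDUFAF6 at -0.24. Complex II and III assembly factors had 3 of 9 lower and 0 higher, with UQCC2 at -0.29. Complex IV assembly factors had 8 of 22 lower and 1 higher: COX14 fell from 23.2 ± 1.12 to 15.3 ± 0.626 CPM (log2 fold change -0.60, edgeR adjusted p = 1.19e-06), and COX20, which stabilises newly made MT-CO2, rose from 11.8 ± 0.46 to 16 ± 0.894 CPM (0.44, edgeR adjusted p = 7.79e-05).

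A further group copies, cuts and stabilises mitochondrial transcripts. Of 15 genes of mitochondrial DNA transcription and replication, 5 fell and 1 rose (median -0.11). POLRMT, the mitochondrial RNA polymerase, fell from 99.2 ± 7.62 to 80.4 ± 2.97 CPM, TOP1MT by 0.34 on the log2 scale, and the termination-factor relative MTERF2, listed under its older symbol MTERFD3, rose from 17.8 ± 0.963 to 22.1 ± 0.465 CPM. Of 20 genes of mitochondrial RNA processing and decay, 7 fell and 1 rose (median -0.08). LRPPRC is in this list and in that of complex IV assembly, so its fall is counted in both. LRPPRC, which stabilises mitochondrial mRNAs, fell from 824 ± 10.2 to 679 ± 29.9 CPM, the RNA-granule protein GRSF1 from 320 ± 6.13 to 248 ± 8.98 CPM (-0.37, edgeR adjusted p = 1.38e-05), and PNPT1, the polynucleotide phosphorylase of mitochondrial RNA decay, by 0.30 on the log2 scale.

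Of 14 regulators of respiratory genes, 3 rose and 6 fell, and the 3 are near the 21.2% of all tested genes that rose. Without control replicate 1, 3 rose and 4 fell, where 20.4% of all tested genes rose and 19.3% fell. In the other lists of nuclear genes the number that fell was then equal or higher, for example 11 in the citric acid cycle. MYC fell from 1725 ± 118 to 1204 ± 159 CPM and the coactivator PPARGC1B by 0.20 on the log2 scale, while PPARGC1A rose from 5.48 ± 0.324 to 7.17 ± 0.778 CPM and GABPB2 from 29.9 ± 0.163 to 35.2 ± 0.639 CPM. Of 18 citric acid cycle genes, 8 fell and 1 rose: IDH2, the NADP-dependent isocitrate dehydrogenase, rose from 22.5 ± 1.21 to 32.8 ± 2.1 CPM (log2 fold change 0.54, edgeR adjusted p = 4.47e-06), and MDH2 dropped by 0.28 on the log2 scale. Of 13 tested genes of import, chaperones and the outer membrane, 8 fell and 0 rose (median -0.16), with TOMM70, listed as TOMM70A, at -0.33 and the chaperone HSPA9 at -0.31. With library totals alone 11% of all tested genes fell, and the falls in these lists dropped in number, several of them to about that share: to 2 of 16 for the ATP synthase, 2 of 17 for complex I assembly, 4 of 22 for complex IV assembly, 2 of 18 for the citric acid cycle, 1 of 14 for the regulators, 0 of 7 for the subunits outside the rule, 3 of 15 for mitochondrial DNA, 5 of 20 for RNA processing and 5 of 13 for import, and were again 3 of 9 for complex II and III assembly. MYC, LRPPRC, GRSF1, PNPT1, POLRMT, COX14, MDH2, HSPA9 and TOMM70A passed on that scale too. Markers of other cells moved as well: fibroblast markers summed to 15 to 16.1 CPM in control and 23.8 to 24.9 CPM in knockout (3 of 4 tested higher, 6 listed), haematopoietic markers to 1.15 to 1.17 and 0.825 to 0.864 CPM (1 higher and 1 lower of 4 tested, 8 listed, 2 at 0), and germ cell markers to 3.47 to 4.04 and 1.04 to 1.6 CPM (1 of 2 tested lower, 6 listed, 2 at 0). Their part in the values of the respiratory genes was not tested.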

How the data were processed

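Total RNA was sequenced from 6 D283 cultures, 3 per group by the genotype label. The authors deposited counts per gene symbol without normalization, 1 column per library, which were matched by title. Alignment with STAR to hg38 is recorded per the submitters' processing notes. The STAR version, counting program, annotation and strand setting were not given in the sources used here. Deposited counts were tested in edgeR 4.0.16 under R 4.3.3 (filterByExpr, TMM, glmQLFit and glmQLFTest over 18420 genes, Benjamini-Hochberg threshold 0.05, 4 residual degrees of freedom). CPM uses TMM-scaled library sizes, fold changes and SE come from the fit, and scripts were tested on simulated data. GENCODE 29 supplied coordinates, transcripts and 50-base windows for all 87 members, and 215 of 218 list entries were found in the table, 28 of them through an older symbol. The members and lists were chosen with earlier results of these data known. Named are all mitochondrial mRNAs, the 10 largest called rises and falls among nuclear members, the most abundant member per complex, and up to 4 genes per list by adjusted p; other members are named after their values were seen. Permutation tests planned for the summed ratio and the pool shares are not given, since both are sums over the chosen members. Alternatives were other scalings (RLE, upper quartile, library totals), no filter, at least 1 CPM in 3 libraries, DESeq2 1.42.0, limma-voom (limma 3.58.1), removal of mitochondrial and rRNA genes, a threshold of 0.01 and leaving out each library; a GC and length correction with splines of 5 degrees of freedom was added after seeing the data.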

Additional observations from a re-analysis of the deposited data

How the results depend on the processing

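Over all genes, 3908 were higher and 3404 lower, and library totals alone gave 5210 and 2034. The 1 nuclear member higher became 5 with library totals alone (28.3% of all tested genes) and 7 with the GC and length correction (22.1%). The number was 5 with that correction without control replicate 1 (21.3%), and leaving out single libraries gave 1 to 3 (17.4% to 20.4%). The 3 came without control replicate 3, and without knockout replicate 3 there were 2. The 16 lower became 6 with library totals alone (11% of all tested genes) and 14 with the GC and length correction (21.9%). The number was 9 at a threshold of 0.01 (12.4%), and leaving out single libraries gave 10 to 23. The 10 came without control replicate 2 (14.3%) and the 23 without control replicate 1 (19.3%). The 6 mitochondrial mRNAs higher became 3 at a threshold of 0.01, 3 with DESeq2, 10 with the GC and length correction and 13 with it without control replicate 1. Leaving out single libraries gave 3 (with either of control replicates 2 and 3, or knockout replicate 1, removed) to 12 (without control replicate 1). MT-ND2, MT-CO3 and MT-ND6 were called in all 16 alternative fits that held them. Of the members named by the rule, those that changed sign had not been called with all libraries: MT-ND3 (-0.01 with RLE and with DESeq2, and -0.12 to 0.24 over single libraries left out), MT-ATP8 (-0.10 to 0.31 over single libraries left out), NDUFB9 (0.02 with library totals alone), UQCRH (0.00 with the GC and length correction) and COX7C (-0.01 with DESeq2, -0.02 to 0.04 over single libraries left out). The log2 difference of the mitochondrial to nuclear ratio stayed between 0.17 and 0.40. No paired analysis was possible because the labels give the groups no shared replicate numbers. The cause of these differences between settings was not tested. At these depths, 3 counts are 0.0471 to 0.0563 CPM, so members near 0 cannot be compared.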
